A study of Mus musculus with 4 samples.

Results

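The genes of the RNA polymerases I, II and III were examined for Myc and Max at their promoters in mouse embryonic stem cells (ESCs). All protein-coding genes whose symbol starts with Polr1, Polr2, Polr3 or Gtf3c were taken, together with Gtf3a, Brf1, Brf2 and Bdp1, which gave 37 of the 22380 protein-coding genes of the annotation (GENCODE M1, mouse build mm9). By symbol, 5 belong to polymerase I, 12 to polymerase II and 20 to polymerase III, of which 10 are Polr3 subunits and 10 are transcription factors of polymerase III. In the Bio-Myc ChIP-Seq, chromatin came from 1 stable clone of E14 mouse ESCs that expresses Myc with a biotin tag, made under a constitutive promoter in cells with the biotin ligase BirA, and was collected on streptavidin beads. In the Max ChIP-Seq, an antibody to Max was used on parental wild-type E14 cells. The controls were a Mock ChIP with the same beads, in parental wild-type cells by the labels and in BirA-expressing cells without a tagged protein by the methods, and an IgG ChIP in parental wild-type cells. Each of the 4 samples is 1 library, so no value below has an error between cultures, the 2 ChIPs differ in their cells as well as in their target, and the depth of the libraries is unknown. The control libraries were used by the authors to find the peaks and were not analysed here on their own. Expression was not measured, so the ESC label could not be checked with marker genes.

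Myc binds DNA as a dimer with Max, and the preferred site of the dimer is the E-Box CACGTG. Max also pairs with itself and with other partners, so that a site can hold Max without Myc. Polymerase I makes the large ribosomal RNA precursor, polymerase II makes messenger RNA, and polymerase III makes transfer RNA, the smallest ribosomal RNA and other short RNAs. The 3 enzymes have a common architecture and some subunits in common, and polymerase III is brought to its genes by the factors TFIIIA, TFIIIB and TFIIIC. Myc is known as an activator of transcription by all of these polymerases and as a regulator of genes for ribosome production.

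The E-Boxes that lay under peaks of both lists at once are shown because they are where the 2 lists and the sequence meet. There were 10 such sites at 7 genes. Each line gives the mm9 position of 30 bases and the strand of the gene, along which the bases run 5′ to 3′, and capitals mark the E-Box.
Polr1b, chr2:128926934-128926963, plus strand: ctgacgcgggcgCACGTGgactccttcaac
Gtf3a, chr5:147759930-147759959, plus strand: gaaaaaaaattcCACGTGactcgaaggagc
Gtf3a, chr5:147760303-147760332, plus strand: tcccggggacggCACGTGgctgccccgcgt
Gtf3c4, chr2:28696242-28696271, minus strand: gagcccaggtagCACGTGgagagggaggat
Gtf3c4, chr2:28696463-28696492, minus strand: tccccgctcgttCACGTGtttccgagagca
Gtf3c6, chr10:39977557-39977586, minus strand: gtgtcgagtctcCACGTGggacccacttac
Polr2h, chr16:20716451-20716480, plus strand: cgggtctgctggCACGTGgaagggacgggc
Polr2h, chr16:20717910-20717939, plus strand: cttacttttctcCACGTGagggggtgcgcg
Polr3a, chr14:25306258-25306287, minus strand: aagaggaagcggCACGTGcggcgctctacg
Polr3e, chr7:128061285-128061314, plus strand: ccccgctcccccCACGTGtccggcggagtt
The site of Polr1b was in a coding exon, 183 bp downstream of the nearest transcription start site (TSS). The second site listed for Gtf3a, the second for Polr2h and the site of Polr3e were in exons with untranslated sequence, 34, 184 and 39 bp downstream of a TSS. The other 6 sites were upstream of the gene, from 2 bp for Polr3a to 1270 bp for the first site of Polr2h.

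The sites of a further 5 genes are shown for contrast, and these were chosen after their values were seen. Brf2 had a Bio-Myc peak alone, Polr3d and Polr3g had a Max peak alone, and Polr3c and Polr3gl had an E-Box just upstream of the TSS under no peak of either list. Positions are in mm9, the bases run 5′ to 3′ along the gene, and capitals mark the E-Box.
Brf2, chr8:28239305-28239334, minus strand: gtgtcaactcccCACGTGgcctaaccacaa
Polr3d, chr14:70842983-70843012, minus strand: ggggcgggaggcCACGTGggtgcggttccg
Polr3d, chr14:70843045-70843074, minus strand: gggaagcctcgcCACGTGggacggggagga
Polr3g, chr13:81849778-81849807, minus strand: gagttgatggggCACGTGgagaacgtggtg
Polr3g, chr13:81850762-81850791, minus strand: gtgatcgaagtgCACGTGggtggccacggc
Polr3c, chr3:96531582-96531611, minus strand: gcccgcaagggtCACGTGagtccgcccggc
Polr3gl, chr3:96398281-96398310, minus strand: ttctggctccgcCACGTGtctggatgagct
The site of Brf2 was 213 bp upstream of its TSS, and the Polr3d sites were in an intron, 278 and 216 bp downstream. The Polr3g sites were in an intron 149 bp downstream of a TSS and 762 bp upstream of the gene. The sites of Polr3c and Polr3gl were 43 and 189 bp upstream.

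A promoter was taken as bound if at least 1 bp of a peak fell within 1 kb of any TSS that the annotation gives for the gene. Of the 37 genes, 15 had a Bio-Myc peak, which is 40.5% (95% Wilson interval 26.3 to 56.5%), while 14.6% of all protein-coding genes had one. A Max peak was found at 27 of the 37, or 73.0% (57.0 to 84.6%), beside 34.8% of all protein-coding genes. Both peaks were found at 14, or 37.8% (24.1 to 53.9%), beside 12.7% of all protein-coding genes. In all of these 14 genes the Bio-Myc peak overlapped a Max peak. Max without Bio-Myc was seen at 13 genes, Bio-Myc without Max at Brf2 alone (1 of 37, beside 1.98% of all protein-coding genes), and neither at 9 genes. The intervals cover counting error over genes only, and genes are not replicates of a ChIP. Among the 27 genes with Max, 14 also had Bio-Myc, or 51.9% (34.0 to 69.3%), beside 36.4% of all protein-coding genes with Max, which lies within the interval.

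The shares of genes with Bio-Myc ran from 33.3 to 45% over the 3 polymerases. A Bio-Myc peak was found at 2 of 5 genes of polymerase I (40%, 95% Wilson interval 11.8 to 76.9%), 4 of 12 of polymerase II (33.3%, 13.8 to 60.9%) and 9 of 20 of polymerase III (45%, 25.8 to 65.8%). Max was found at all 5 genes of polymerase I (56.6 to 100%), at 8 of 12 of polymerase II (66.7%, 39.1 to 86.2%) and at 14 of 20 of polymerase III (70%, 48.1 to 85.5%). Both peaks were found at 2, 4 and 8 genes in the same order. Over all protein-coding genes the shares were 14.6% for Bio-Myc, 34.8% for Max and 12.7% for both. The 14.6% lies within the Bio-Myc intervals of polymerases I and II and below that of polymerase III. The 34.8% lies below all 3 Max intervals. With 5 to 20 genes the intervals are wide, and differences between the polymerases were not tested. Within polymerase III, 4 of the 10 Polr3 subunits and 5 of the 10 factors had Bio-Myc, and 8 and 6 had Max.

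**Figure D1:**
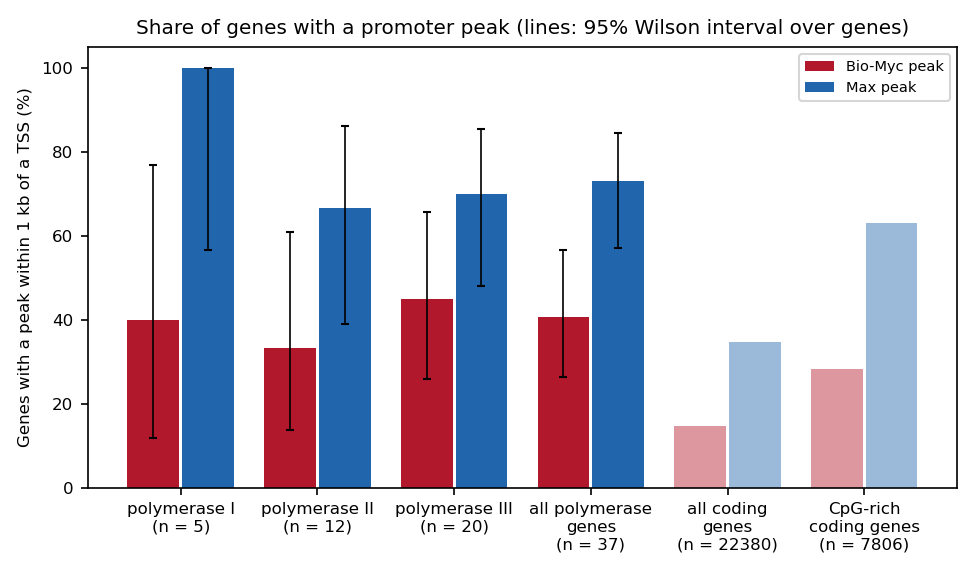
Share of genes, in percent, with a Bio-Myc peak (red) and with a Max peak (blue) within 1 kb of a TSS, for polymerases I, II and III, all 37 genes, all protein-coding genes and those with a CpG-rich promoter, where lines on the bars of the polymerase genes are 95% Wilson intervals over genes. Bio-Myc was at 33.3 to 45% and Max at 66.7 to 100% of the genes of each polymerase, with wide intervals.

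The symbol does not say which enzyme a subunit serves, since Polr1c and Polr1d are also part of polymerase III, and Polr2e, Polr2f, Polr2h, Polr2k and Polr2l are part of all 3 enzymes. Of these 7 shared subunits, 4 had Bio-Myc (57.1%, 95% Wilson interval 25.0 to 84.2%) and 6 had Max. Of the 7 subunits found in polymerase II alone, 1 had Bio-Myc (14.3%, 2.57 to 51.3%) and 4 had Max. The share with Bio-Myc among subunits particular to polymerase II was thus close to the 14.6% of all protein-coding genes, and 3 of the 4 Polr2 genes with Bio-Myc encode subunits that all 3 polymerases hold. The difference between the 2 sets of 7 was not tested.

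The score of a peak is its p-value as a negative log10, times 10, and starts at 80. Scores depend on depth and were ranked within each list, and a percentile below is the percent of peaks in that list with a lower score. The 15 Bio-Myc peaks of these genes, the highest for each gene, had scores from 83.3 to 713.2 with a median of 166.7, and the median over all protein-coding genes with Bio-Myc was 142.8. Of the 15, 8 were above that median. The 27 Max peaks had scores from 81.0 to 1000.2 with a median of 259.1 beside 196.3 over all protein-coding genes with Max, and 18 were above it. A score of at least 150 was reached at 8 of the 15 genes in the Bio-Myc list, beside 46.8% of all protein-coding genes with Bio-Myc, and at 21 of the 27 in the Max list, beside 65.0%. By polymerase, the median Bio-Myc score was 576.3 for the 2 genes of polymerase I, 135.2 for the 4 of polymerase II and 236.7 for the 9 of polymerase III. All 4 Bio-Myc scores of polymerase II, from 121.7 to 166.7, were below both scores of polymerase I. Of the 9 scores of polymerase III, 5 were above all 4 of polymerase II. The others, those of Gtf3c2 (83.3), Polr3e (91.0), Polr3a (112.7) and Brf2 (118.6), were below all 4. Over the 14 genes with both peaks, the 2 scores of a gene were weakly related (Spearman's rho 0.14, given as a description), beside 0.39 over 2832 protein-coding genes with both.

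**Figure D2:**
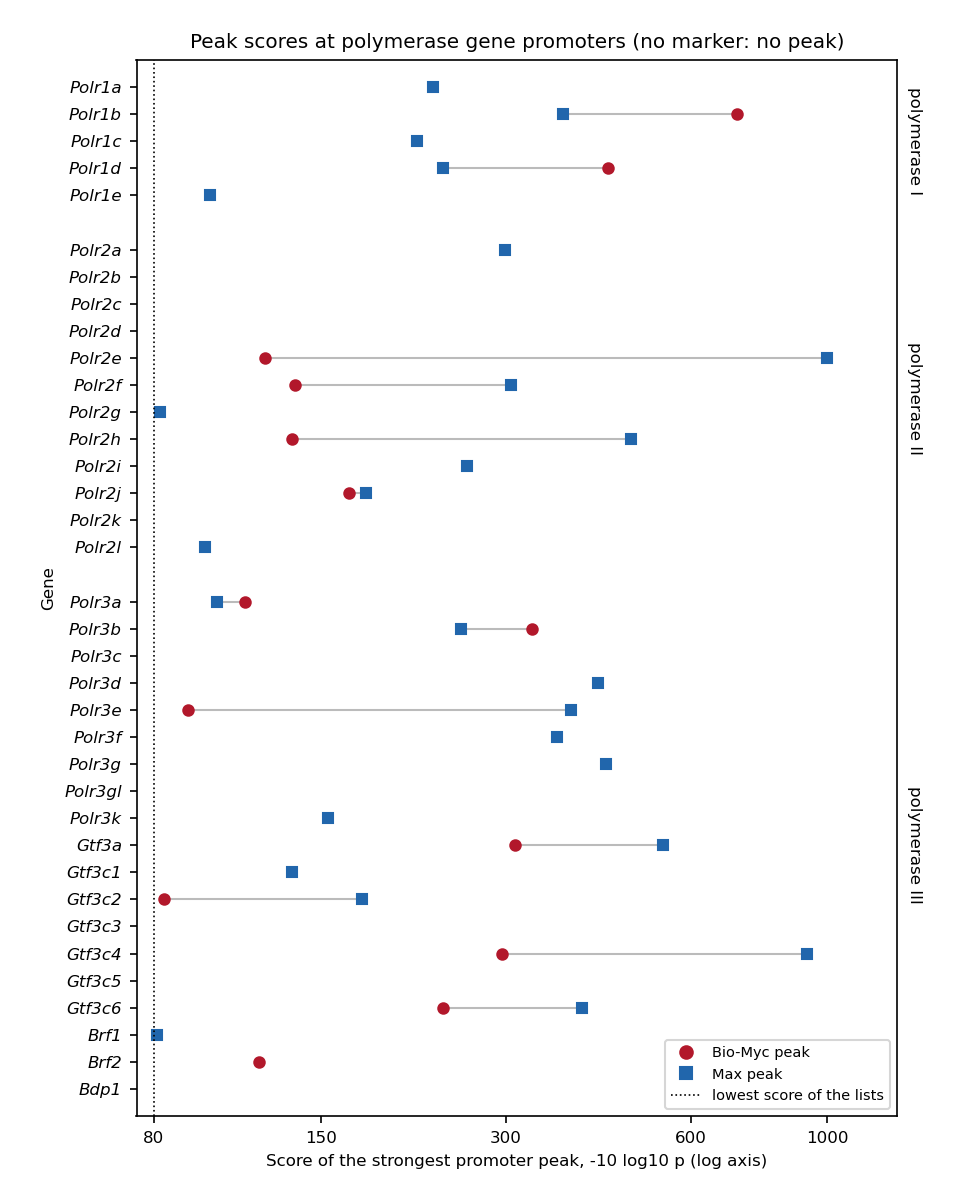
Highest score in the Bio-Myc list and in the Max list within 1 kb of a TSS for each gene named in the text, by polymerase, on a log axis (negative log10 of p, times 10). Polr1b had the highest Bio-Myc score, 713.2, and Polr2e the highest Max score, 1000.2.

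Polymerase I had the strongest Bio-Myc peak. Polr1b (ENSMUSG00000027395, chromosome 2, 128926731 to 128952330, plus strand) encodes the second largest subunit of the enzyme, which forms the active centre together with the largest. Its Bio-Myc peak, from 128926483 to 128927459, scored 713.2 and was at percentile 98.6, and its Max peak scored 371.7 at percentile 85.7. The E-Box printed above lay 23 bp from the middle of the former and 30 bp from that of the latter. Polr1d (chromosome 5, 147888626 to 147922937, plus strand) encodes the smaller partner of a heterodimer on which polymerases I and III are assembled. Its Bio-Myc peak scored 439.4, at percentile 95.2, and was 2285 bp wide, while the Max list had 2 peaks there, with scores of 236.5 and 157.4. Both lists thus placed a peak over the start of Polr1d, and none of these peaks held CACGTG.

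The other 3 genes of polymerase I had Max alone. Polr1c, which encodes the partner of the Polr1d product, had a Max score of 214.9, and Bio-Myc was next found 5526 bp upstream of a TSS. Polr1a, the gene of the largest subunit, had a Max score of 227.9, and no Bio-Myc peak was nearer than 526 kb. Polr1e, which encodes a subunit with a role in initiation and elongation, had a Max score of 98.8, at percentile 17.7. The heterodimer's 2 genes therefore differed in Bio-Myc, and the genes of the 2 largest subunits differed as well. The remaining polymerase I subunits go by older symbols in this annotation and were outside the 37 genes. Cd3eap had both peaks, with scores of 208.6 and 556.7, Twistnb had Max alone with 105.5, and Znrd1 had neither.

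Among the polymerase II genes, Polr2e (chromosome 10, 79498694 to 79502540, minus strand) stood out in the Max list. It encodes a subunit common to all 3 enzymes, and its Max peak scored 1000.2, at percentile 98.5, while its Bio-Myc peak scored 121.7, at percentile 45.0. Polr2f (chromosome 15, 78971781 to 78982204, plus strand), another common subunit, had scores of 135.9 for Bio-Myc and 305.2 for Max. Polr2h (chromosome 16, 20717738 to 20722340, plus strand), the third common subunit with Bio-Myc, had 2 peaks in each list. The Bio-Myc peak over its TSS scored 134.5 and the peak 615 bp upstream 108.8, and the Max scores were 478.7 over the TSS and 286.2 for the peak 899 bp upstream. Each of these 4 peaks held an E-Box, the 2 printed above, so the pair of peaks recurred in both lists. Polr2j (chromosome 5, 136592501 to 136598817, plus strand), which encodes an assembly subunit of polymerase II, had scores of 166.7 for Bio-Myc and 177.4 for Max. Its E-Box was 747 bp upstream of the TSS, under the Bio-Myc peak and outside the Max peak.

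Polr2a, the gene of the largest subunit with the C-terminal repeat domain, had Max alone with a score of 298.8, and its nearest Bio-Myc peak was 54.8 kb away. Polr2i, which encodes a subunit with a role in fidelity, had a Max score of 259.1. Max scores were low at Polr2l, a common subunit, with 96.9 and 86.8 for its 2 peaks, and at Polr2g, a stalk subunit, with 82.0 at percentile 2.55. Neither list had a peak at Polr2b, Polr2c, Polr2d or Polr2k. For Polr2b, the gene of the second largest subunit, Bio-Myc was next found 9461 bp downstream and Max 23.9 kb upstream. At Polr2c, the assembly partner of the Polr2j product, they were 18.6 and 18.7 kb away, and at Polr2d, the partner of the Polr2g product in the stalk, 28.6 and 29.2 kb away. Polr2k, a common subunit, was 435 kb from a Bio-Myc peak and 33.2 kb from a Max peak. The counterparts of the strongest gene of polymerase I, Polr1b, therefore differed between enzymes. Polr2b had neither peak and Polr3b, described next, had both.

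Of the Polr3 subunits, Polr3b had the highest Bio-Myc score. Polr3b (chromosome 10, 84085182 to 84189922, plus strand), the gene of the second largest subunit, had scores of 331.2 for Bio-Myc, at percentile 90.9, and 252.9 for Max. It had no CACGTG under either peak. Polr3a (chromosome 14, 25267916 to 25306268, minus strand), the gene of the largest subunit, had lower scores in both lists, 112.7 and 101.4, although its E-Box was 2 bp from the TSS and 11 bp from the middle of its peak for Max. Polr3e (chromosome 7, 128061258 to 128090946, plus strand) encodes part of a heterodimer with a role in termination. It had a Bio-Myc score of 91.0, at percentile 16.7, and a Max score of 382.7, at percentile 86.5, and its E-Box was at the middle of the latter peak (0 bp) and 175 bp from the middle of the former.

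The other 4 subunits with Max had it alone. Polr3d, the partner of the Polr3e product, had a Max score of 423.9, at percentile 88.6, and the E-Boxes printed above were 40 and 22 bp from the centre of the peak. Polr3f had 363.3 and Polr3g 436.7, at percentiles 85.0 and 89.4, and their products belong to a subcomplex that acts in initiation. Polr3k, which encodes the RNA cleavage subunit, had 154.0. The nearest Bio-Myc peaks of these genes were 56.6 to 170 kb away. Scores of this height in the Max list were thus seen without any Bio-Myc peak nearby. Polr3c, the third partner in the initiation subcomplex, and Polr3gl had neither peak. Polr3g and Polr3gl encode alternative forms of the same subunit, of which the first is known for its expression in ESCs. Polr3g had Max and Polr3gl had none, with Max next found 3182 bp upstream and Bio-Myc 7548 bp downstream. Crcp, a stalk subunit under an older symbol, had Max alone with a score of 93.1.

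Of the 10 factors of polymerase III, 4 had both peaks and 3 had neither. Gtf3a (chromosome 5, 147760233 to 147767190, plus strand) encodes TFIIIA, a zinc finger protein needed for the genes of the smallest ribosomal RNA. It had scores of 310.2 for Bio-Myc, at percentile 89.6, and 540.7 for Max, at percentile 93.0, and one of its E-Boxes lay 22 bp from the middle of the former peak. TFIIIC recognises the internal promoters of transfer RNA genes, and 3 of its 6 genes had both peaks. Gtf3c4 (chromosome 2, 28677819 to 28695880, minus strand) had scores of 295.1 and 927.2, the latter at percentile 98.2. Gtf3c6 (chromosome 10, 39969009 to 39977471, minus strand) had scores of 236.7 and 398.9. Gtf3c2 (chromosome 5, 31453515 to 31482517, minus strand) was close to the limit in the Bio-Myc list, with 83.3 at percentile 4.22, and had a Max score of 174.8. Gtf3c1 had Max alone with 134.6. Gtf3c3 had neither peak, with the nearest ones 588 and 613 kb away, and Gtf3c5 was 102 kb from a Bio-Myc peak and 44.5 kb from a Max peak.

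TFIIIB is the factor that recruits polymerase III itself, and none of its 3 genes here had both peaks (Wilson interval 0 to 56.1%). The 12.7% of all protein-coding genes with both peaks lies within this interval. With 3 genes the absence cannot set TFIIIB apart from the background or from TFIIIC, and no difference was tested. Brf2 (chromosome 8, 28234304 to 28239104, minus strand) encodes the form used at promoters that lie upstream of the transcribed sequence. It was the one gene of the 37 with Bio-Myc and no Max peak, with a score of 118.6 at percentile 43.0. The nearest Max peak was 6569 bp downstream, and the E-Box printed above lay 71 bp from the middle of its peak. Brf1, the form used at transfer RNA genes, had Max alone, with a score of 81.0 at percentile 1.24. Bdp1, which is common to both forms, had neither, with a Max peak 3540 bp upstream and no Bio-Myc peak within 388 kb. Brf2 and Polr2c were the 2 genes on chromosome 8, where 60.6% of protein-coding genes had a Max peak beside 33.5% on the other chromosomes, and where 16.7% had a Bio-Myc peak beside 14.5%. Neither of them had Max, and without them 14 of 35 genes had Bio-Myc and 27 of 35 had Max.

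Peaks lay over the TSS. In the Bio-Myc list, all 15 genes had a peak that covered a TSS, beside 88.9% of all protein-coding genes with Bio-Myc. In the Max list 25 of 27 had one (76.6 to 97.9%), beside 86.1%, and both backgrounds lie within the intervals. The exceptions in the Max list were Polr2l, with a peak 3 bp upstream, and Brf1, with a peak 154 bp downstream. The middle of the highest peak was a median of 113 bp from a TSS for Bio-Myc (15 to 239 bp) and of 50 bp for Max (4 to 1225 bp), beside 146 and 136 bp over all protein-coding genes with a peak. Centres were downstream of the TSS at 9 of 15 genes for Bio-Myc and at 14 of 27 for Max. Over all protein-coding genes with a peak the shares were near these, 52% and 52.7%. Median widths were 977 and 934 bp, so a peak of typical width covers sequence to either side of the start.

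**Figure D3:**
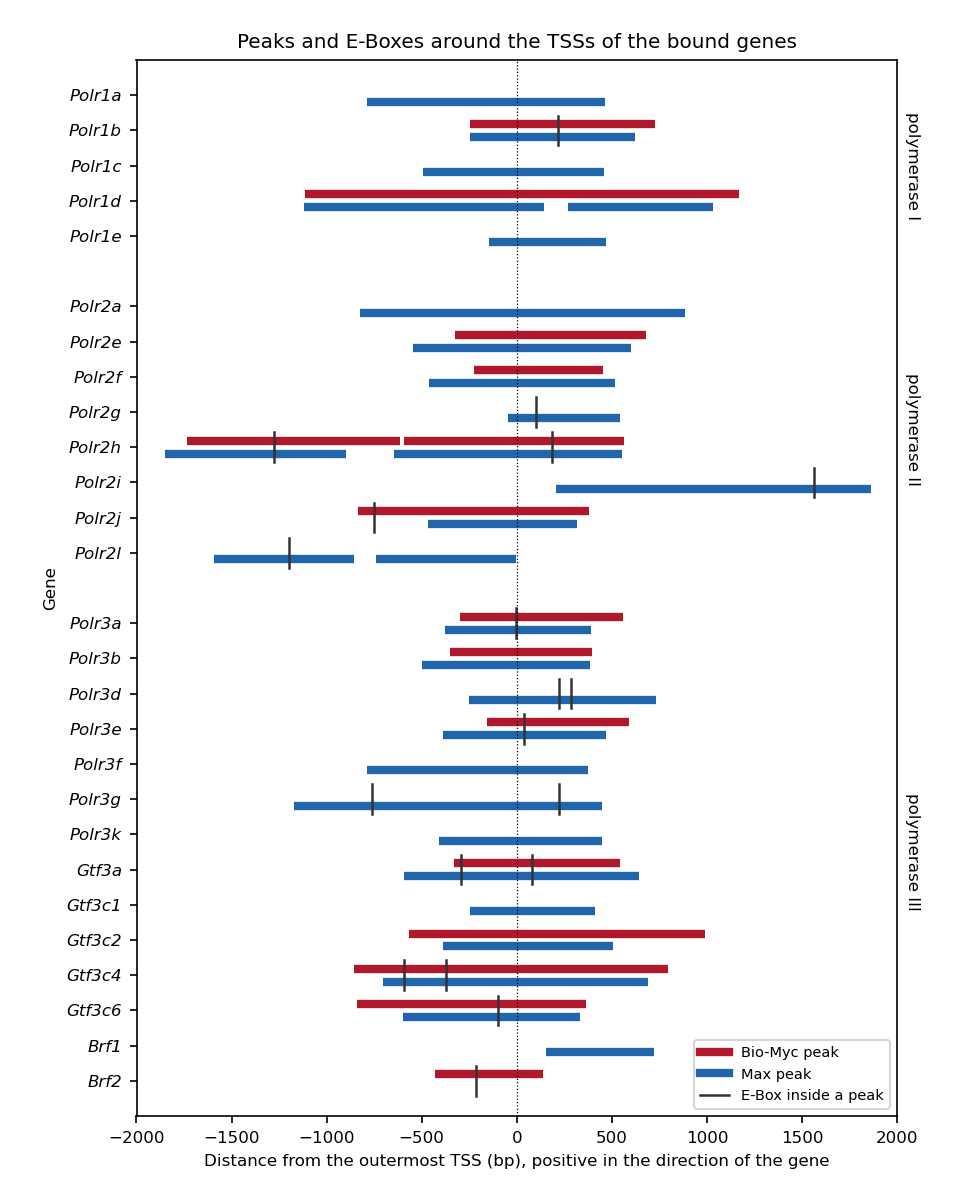
Bio-Myc peaks, Max peaks and the E-Boxes under them around the outermost TSS of each named gene with a peak. Distances are in bp, with the direction of transcription to the right, and E-Boxes under no peak are not drawn. Most peaks lie over this TSS, the peak of Polr2i lies over a TSS further downstream, and the Polr2h promoter has 2 peaks in each list.

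The E-Box was present at a part of the bound promoters. A Bio-Myc peak held CACGTG at 9 of 15 genes (60%, 95% Wilson interval 35.7 to 80.2%), beside 49.7% of all protein-coding genes with Bio-Myc. A Max peak held it at 12 of 27 (44.4%, 27.6 to 62.7%), beside 38.6%. Both backgrounds lie within the intervals. CACGTG reads the same on both strands and was searched under whole peaks. The 6 genes with Bio-Myc but without CACGTG under it, Polr1d, Polr2e, Polr2f, Polr3b and Gtf3c2 among them, had a median Bio-Myc score of 212.3, and the 9 with it had a median of 166.7. Over all protein-coding genes with Bio-Myc the order was the other way, 125.7 without and 164.5 with the E-Box. The scores of the 6 and the 9 genes overlapped, from 83.3 to 439.4 and from 91.0 to 713.2. Their difference was not tested. In the Max list the 12 genes with CACGTG had a median score of 390.8 and the 15 without 227.9, beside 265.2 and 163.3 over all protein-coding genes with Max. CACGCG on either strand, which differs from the E-Box in a single base, was then also counted. With it, 14 of 15 Bio-Myc genes and 23 of 27 Max genes held a motif, beside 78.4 and 70.0%. These shares are given without an interval, and their distance to the background was not tested.

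Counted from the genome rather than from the peaks, 22 of the 37 genes (59.5%, 95% Wilson interval 43.5 to 73.7%) had CACGTG within 1 kb of a TSS, beside 39.0% of all protein-coding genes. By polymerase these were 2 of 5, 7 of 12 and 13 of 20. Of the 22 genes with an E-Box, 11 had Bio-Myc (50%, 30.7 to 69.3%) and 17 had Max (77.3%, 56.6 to 89.9%), beside 23.9% and 50.5% of protein-coding genes with an E-Box. Of the 15 without, 4 had Bio-Myc (26.7%, 10.9 to 52.0%) and 10 had Max (66.7%, 41.7 to 84.8%), beside 8.69% and 24.8%. The shares of the polymerase genes were thus above the background in both classes. The shares with a peak were higher with an E-Box than without, among the polymerase genes and over all protein-coding genes. The difference was not tested. Any TSS counted, so the E-Box and the peak of a gene could lie at different TSSs. This was so at Polr2e, Gtf3c2, Polr1e and Polr2a, whose E-Boxes were near internal TSSs and under no peak. Polr3c, Polr3gl and Gtf3c5 had an E-Box upstream of the gene within 1 kb and no peak. Polr2b had an E-Box near an internal TSS and no peak. The base next to the E-Box on its 5′ side, read on both strands, was C in 18 of 34 cases (52.9%) and A in 3 (8.82%) for the 17 sites of the polymerase genes that lay within 1 kb of a TSS and under a peak. For the 20 sites within 1 kb of a TSS under no peak it was C in 9 of 40 cases (22.5%) and A in 13 (32.5%). Most of these 20 sites lay inside the gene near an internal TSS, as at Polr1b, Polr1e, Polr2a and Gtf3a. The sites under a peak and under none thus differed in position as well. Over all protein-coding genes, C was at 34.3% and A at 16.4% for sites under a peak, and at 28.9% and 26.3% for sites under none. The lean to C and away from A had the same direction in both sets and was not tested. This count was chosen after the data were seen.

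Promoters of housekeeping genes are often rich in CpG and often shared by divergent genes, so the counts were repeated for both features. A CpG-rich promoter was one with at least 55% G and C and a ratio of observed to expected CpG of at least 0.65 within 500 bp of the outermost TSS. It was found at 22 of the 37 genes, or 59.5%, beside 34.9% of all protein-coding genes. Of these 22, 9 had Bio-Myc (40.9%, 95% Wilson interval 23.3 to 61.3%), beside 28.3% of all protein-coding genes with a CpG-rich promoter, which is within the interval. Max was at 19 of the 22 (86.4%, 66.7 to 95.3%), beside 63.1%, and both peaks at 9 (40.9%), beside 25.4%. The distance to the background was thus smaller than over all genes for both proteins. Of the 15 genes without a CpG-rich promoter, 6 had Bio-Myc (40%, 19.8 to 64.3%), namely Polr1b, Polr1d, Polr3a, Polr3b, Gtf3c6 and Brf2, beside 7.31% of all protein-coding genes without one. Max was at 8 of these 15 (53.3%, 30.1 to 75.2%), beside 19.6%. Both shares of the polymerase genes in this class had intervals above the background.

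A protein-coding gene on the opposite strand started within 1 kb of a TSS at 13 of the 37 genes (35.1%), beside 12% of all protein-coding genes. Bio-Myc was at 4 of these 13 (30.8%) and Max at 11 (84.6%), beside 34.1% and 65.1% of all protein-coding genes with such a neighbour. Bio-Myc was at 11 of the 24 without one (45.8%, 95% Wilson interval 27.9 to 64.9%), beside 12%, and Max at 16 (66.7%, 46.7 to 82.0%), beside 30.7%. Bio-Myc at the polymerase genes was therefore above the background at promoters without a divergent coding gene. At divergent promoters a peak cannot be given to a single gene. The Bio-Myc peaks of Polr1d, Polr2f, Polr2h and Gtf3c4 were shared in this way with Lnx2, 1700088E04Rik, Clcn2 and Ddx31, whose TSSs were 464, 100, 81 and 46 bp away. Those of Polr3b and Gtf3c6 also reached a noncoding gene within 1 kb, Gm17249 at 141 bp and a U3 snoRNA gene at 802 bp. In the Max list 14 of 27 genes shared their peak with another annotated gene, such as Polr1c with Yipf3 at 26 bp, Polr2i with Tbcb at 60 bp and Polr3d with Mir320 at 39 bp. How often a peak was shared in this way was not counted over all protein-coding genes. Polr3c had neither peak although the TSS of Rnf115 was 17 bp away.

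Genes that act with the polymerases were counted in the same way, from lists chosen for their role and with no test. Of 9 genes for other subunits and factors of polymerase I, 5 had Bio-Myc and 7 had Max. The highest Bio-Myc score was that of Cd3eap, and Rrn3, the factor that links polymerase I to its promoter, had scores of 172.3 and 571.0 (Bio-Myc and Max). Of 19 general factors of polymerase II, 7 had Bio-Myc and 11 had Max, led by Cdk7, the kinase of TFIIH, with a Bio-Myc score of 426.4. Of 15 pausing and elongation factors of polymerase II, 2 had Bio-Myc and 4 had Max, and the higher Bio-Myc score was 109.6 at Ccnt2, a cyclin of the elongation kinase P-TEFb. These shares, 13.3 and 26.7%, were not above the 14.6 and 34.8% of all protein-coding genes. Of 8 further genes linked to polymerase III, 3 had Bio-Myc and 3 had Max, and Snapc4, a subunit of a complex that binds snRNA promoters, had the highest Bio-Myc score, 105.8. Of 8 assembly factors, 5 had Bio-Myc and 4 had Max, led by Ruvbl2 with 204.7. Of 6 genes for transcription in mitochondria, 4 had Bio-Myc and 5 had Max, led by Mterfd1 with 187.6.

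**Figure D4:**
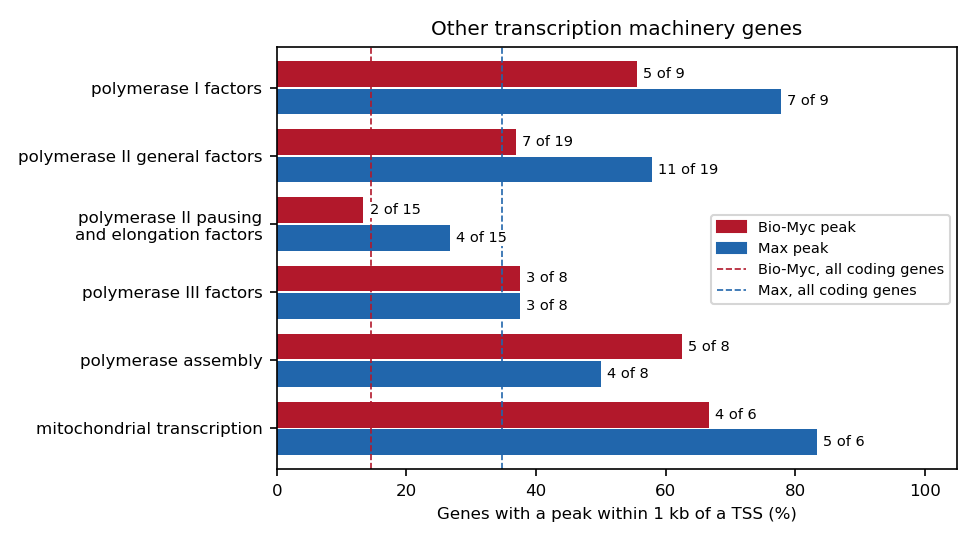
Share of genes, in percent, with Bio-Myc or with Max within 1 kb of a TSS in 6 lists of genes that act with the polymerases, with dashed lines at the shares of all protein-coding genes, 14.6 and 34.8%. The pausing and elongation factors of polymerase II, with 2 and 4 of 15, are below both lines.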

How the data were processed

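The authors sequenced the ChIP libraries on an Illumina HiScanSQ, aligned them to mm9 (Bowtie 0.12.7, at most 2 mismatches, uniquely mapped reads), collapsed redundant reads and found peaks with MACS 1.4.1 against the Mock or IgG ChIP at a p-value of 1e-08. CASAVA 1.8 is also named in the submitters' processing notes. The deposited lists hold, for each peak, its position and a score, the negative log10 of the p-value times 10. The lists hold no read counts, so the number of peaks may reflect depth, and unique mapping leaves out repeated sequence.

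From these, peaks were assigned to GENCODE M1 genes within 1 kb of any TSS, and sequence was read from the mm9 assembly (1-based coordinates). The intervals given with shares are 95% Wilson intervals, and some shares are given without one. No test between groups was made, since each list comes from 1 library. The genes of the set are named, except for 1 that is in the counts and not reported here by itself, E-Box sites are printed where CACGTG lies under both peaks, and of the pathway genes the highest Bio-Myc score of each list is named. Rrn3 and the subunits under older symbols were named after their values were seen. The genes and lists were chosen with earlier results of these data known, and the CpG, divergent promoter and flanking base counts after the data were seen. Alternatives were other windows, TSS sets, score limits, list lengths, motif rules and gene sets. Python 3.11.15, numpy 2.4.6, scipy 1.17.1, pysam 0.24.0, samtools 1.23.1 and matplotlib 3.10.9 were used. The assignment of peaks was tested on simulated data, where 2000 of 2000 promoter calls and 1556 of 1556 distances were right.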

Additional observations from a re-analysis of the deposited data

How the results depend on the processing

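Of 83 recomputed counts, 67 stayed within 1.5 times the count given and 16 did not. Counts were compared, not shares, so a count could move because the gene set was made smaller. At p-values of 1e-15 or lower, 8 of 37 genes had Bio-Myc and 8 had both peaks, 1 of them of polymerase II and 5 of polymerase III, beside 6.85% and 5.85% of all protein-coding genes. For polymerase III, 5 genes also had both at 1e-11. With the Max list shortened to the length of the Bio-Myc list, 17 genes had Max, beside 15.5% of protein-coding genes. Restricting the set to CpG-rich promoters left 9 of 22 with Bio-Myc and 9 with both. Each is 40.9%, beside 40.5% and 37.8% over the 37 genes. Leaving out divergent coding promoters left 16 of 24 with Max, or 66.7%, beside 73.0%. Without the shared subunits, 1 of 3 genes of polymerase I and 1 of 7 of polymerase II had both. Of the Polr3 subunits alone 4 of 10 had both, or 40%, the same share as over all 20 genes of polymerase III. In the central 200 bp of peaks, 3 of 15 Bio-Myc and 7 of 27 Max genes held CACGTG. Over all protein-coding genes with Bio-Myc and with Max these shares were 17.9% and 18.0%. Under whole peaks, 14 and 23 genes held CACGTG or CACGCG. Across the promoter windows, Bio-Myc stayed at 15 genes and Max ranged from 25 to 29. No paired analysis was possible because each ChIP has 1 library and the counts come from no test. The depth of the libraries is unknown, so genes without a peak are not shown to lack the protein.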

Other observations

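Some of the polymerase genes lie near each other. Gtf3a and Polr1d, on chromosome 5, start 128 kb apart and each had both peaks. Gtf3c4 and Gtf3c5, on chromosome 2, start 257 kb apart, and Gtf3c4 had both peaks while Gtf3c5 had neither. Polr3c and Polr3gl, on chromosome 3, start 133 kb apart and had neither. Gtf3c5, Polr3c and Polr3gl each have an E-Box within 1 kb of a TSS.

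Bio-Myc without Max, which 1 of the 37 polymerase genes and 1.98% of all protein-coding genes had, was also seen in 4 of the 6 lists of genes that act with the polymerases. It was found at 3 of 8 assembly factors (Rpap1, Rpap2 and Gpn2), 2 of 8 genes linked to polymerase III (Snapc5 and Ssb), 2 of 19 general factors of polymerase II (Gtf2h2 and Gtf2h4) and 1 of 15 pausing and elongation factors (Ccnt2). Their Bio-Myc scores were 84.5 to 137.5. Gtf2h4 had its nearest Max peak 1008 bp from a TSS, just outside the 1-kb window. All of these genes were named after their values were seen, and no difference between the lists was tested.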
